A study of Mus musculus with 6 samples.

Results

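The genes described here are 10 early factors of the FOS, JUN, EGR and NR4A families in leukaemia initiating cells (LICs), those that can seed the leukaemia again. They are Fos, Fosb, Jun, Junb, Jund, Egr1, Egr2, Nr4a1, Nr4a2 and Nr4a3, chosen by name, and all 10 were found among the 23337 genes of the deposited count table. RNA was read in 6 libraries of sorted mouse LICs, 3 labelled adult (replicates 1, 2 and 4) and 3 labelled neonatal (replicates 4, 7 and 8). The source is labelled as hematopoietic stem and progenitor cells (HSPCs), and strain, sex, driver of the leukaemia, treatment and sorting gate are not given there. Nothing in the labels ties a replicate to an animal of its own, and p-values then reflect the spread of these samples alone, which may be technical.

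FOS and JUN proteins pair through a leucine zipper to form the transcription factor AP-1, and JUN proteins can also pair with each other. EGR proteins bind DNA with zinc fingers, and NR4A proteins are orphan nuclear receptors. Most of the 10 are early response factors. Growth factor, cytokine and stress signals switch these on without new protein synthesis, largely through MAP kinases acting on the factors SRF, ELK and CREB. In the blood system JUNB and EGR1 restrain stem cell division, mice without JUNB in blood cells develop a myeloid disease, and mice lacking both NR4A1 and NR4A3 develop acute myeloid leukaemia. Dissociation and sorting of cells can also induce these genes, and the labels give no handling times.

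Neonatal replicate 4 held 3932833 counts, and the other 5 libraries held 60113466 to 66132051. Values with and without this library are therefore given. CPM is the count scaled to a common library size after TMM, which corrects library totals for composition. Where no read was counted, 3 counts served as the upper limit (0.897 CPM in neonatal replicate 4, elsewhere 0.0425 to 0.0503 CPM), for counting error only. Eif2s3y, on chromosome Y, was at 125 to 155 CPM in adult and had no count in neonatal libraries, and Xist ran from 51.7 to 186 CPM in neonatal against 0.610 to 0.919 CPM in adult libraries, so sex and age group cannot be told apart. Of 6 T and NK cell markers, Cd3e, Cd3g, Cd4 and Ncr1 were at 0 in all 6 libraries, and the list summed to 0.265 to 0.655 CPM in adult and 0.299 to 0.595 CPM in neonatal libraries, from Cd3d and Cd8a. Of 6 stromal and endothelial markers, Cdh5, Kdr and Col3a1 were at 0 in all 6 libraries. The list summed to 22.0 to 64.2 CPM in adult and 64.0 to 97.4 CPM in neonatal libraries, mostly from Pecam1, which blood cells also express. Pecam1 lay higher in every neonatal than in any adult library, as did 7.67% of all genes tested. Its values almost met at 64.0 CPM in neonatal replicate 4 and 63.8 CPM in adult replicate 2. Cxcl12 reached 3.62 CPM in adult replicate 4 and 0.977 CPM in neonatal replicate 7, and Col1a1 0.387 CPM in adult replicate 2. The 6 listed markers of maturing neutrophils summed to 1726 to 14279 CPM in adult and 3.99 to 91.8 CPM in neonatal libraries. The 6 macrophage markers summed to 135 to 657 and 64.3 to 202 CPM, and the 8 myeloid progenitor markers to 14511 to 25978 and 3392 to 18191 CPM. Of these 8, Cd34 lay higher in every neonatal than in any adult library, as did 7.67% of all genes tested. Elane and Ms4a3 lay lower in every neonatal library, as did 12% of all genes tested, and 5 overlapped. The list summed to 18191 CPM in neonatal replicate 4 but to 6153 and 3392 CPM in neonatal replicates 7 and 8. Without neonatal replicate 4, the edgeR test described below called Prtn3, Elane and Ms4a3 lower and Kit higher in neonatal LICs. That fit called 2.25% of all genes tested lower and 3.72% higher. The part of these markers in the results below was not tested. In bulk RNA, fewer cells of a type and less RNA per cell cannot be told apart.

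The comparison asks how neonatal LICs differ from adult LICs in these factors. Jund, Junb and Nr4a2 stood higher in each neonatal library than in any adult library, by 2.55-fold, 1.43-fold and 3.36-fold on group means. Fos, Fosb, Jun, Egr1 and Nr4a1 overlapped between the groups, and each spread at least 2.62-fold within either group. Nr4a3 had no count in any library, and Egr2 was too low to be tested on 6 libraries. By edgeR's quasi-likelihood test over all genes, none of the 8 members tested passed an adjusted p of 0.05, against 0.0527% of 13272 genes (0.0151% higher and 0.0377% lower in neonatal LICs). At an unadjusted p under 0.05 there were 3 of 8 (Jund, Nr4a2 and Jun), against 11.9% of all genes tested. DESeq2 called Jund and Nr4a2, both higher in neonatal LICs, as it did 2.43% of all genes, and limma voom called none. With library quality weights, limma voom called the same 2 genes, and 4% of all genes were called higher. Among all genes tested, 7.67% had every neonatal library above every adult one, and 19.6% had groups that did not overlap in either direction. Without neonatal replicate 4, edgeR called 0 of 9 members, against 5.98% of 13856 genes (3.72% higher and 2.25% lower). An unadjusted p under 0.05 was then found for 3 of 9 members and 29.5% of all genes. DESeq2 without that library called Jund and Nr4a2 higher, and 12.6% of all genes. In the same 5 libraries limma voom called 0 of 9 members (adjusted p = 0.0601 for Jund and 0.0569 for Nr4a2).

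**Figure D1:**
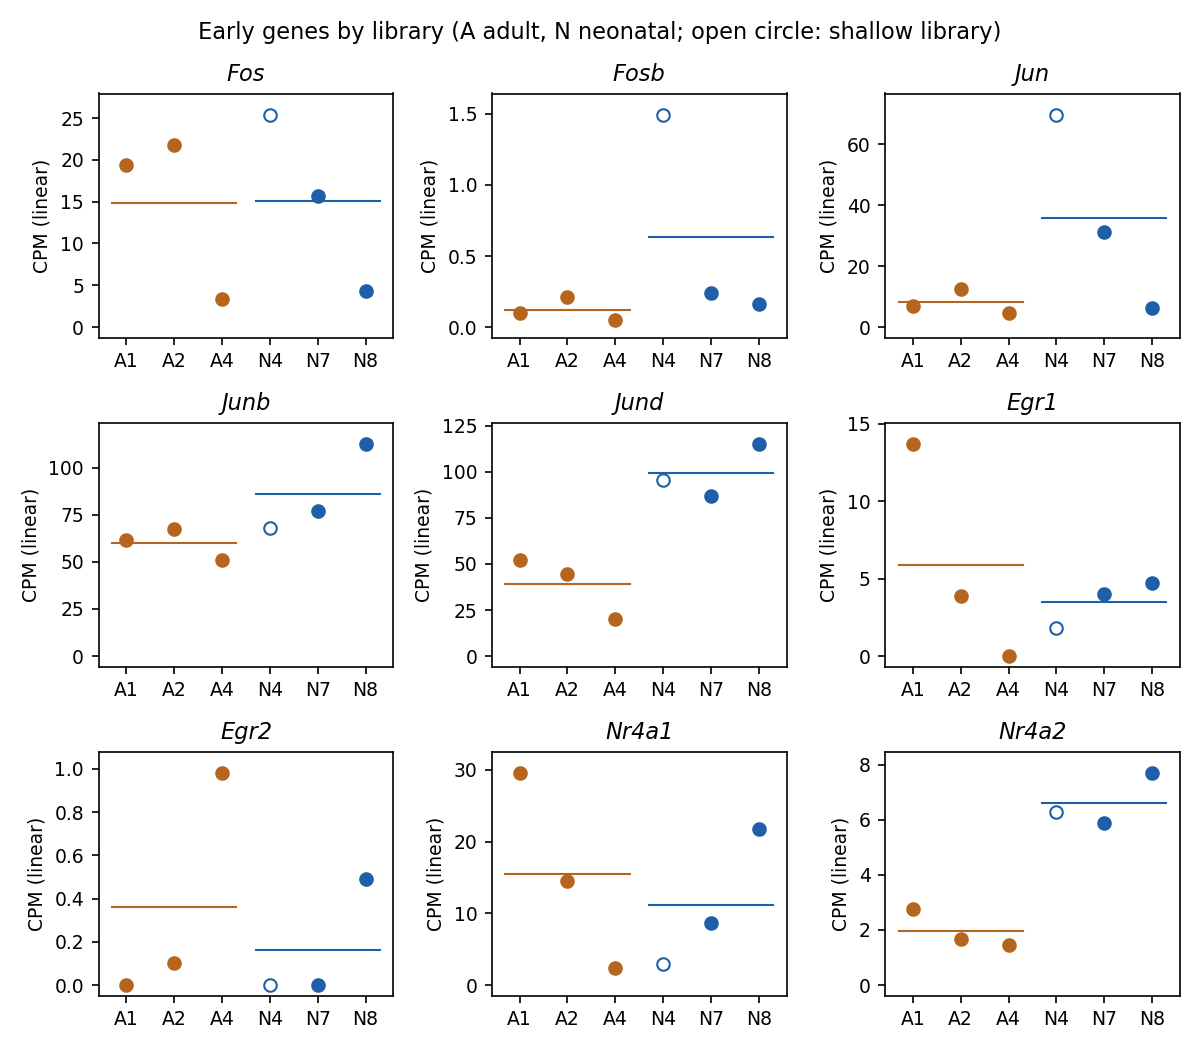
CPM (linear axis, TMM scaling) of 9 early genes in each library, with a line at each group's mean; A is adult, N is neonatal and the open circle is neonatal replicate 4, which held 3932833 counts. Jund, Junb and Nr4a2 show no overlap between groups, and adult replicate 4 is the lowest adult library in every panel except Egr2, where it is the highest.

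Among the JUN family, Jund is the member that is usually present at a steady level and opposes growth in many cells. Jund (chromosome 8, 70697739 to 70700616, mm10, a gene of a single exon) measured 52.3, 44.3 and 20.1 CPM in the adult replicates 1, 2 and 4. It reached 95.6, 86.7 and 115 CPM in neonatal replicates 4, 7 and 8. The neonatal libraries lay within 1.33-fold of each other, and the lowest adult library lay 2.60-fold below the highest. The log2 fold change was 1.35 ± 0.40 (SE, edgeR adjusted p = 0.234) with 6 libraries and 1.39 ± 0.40 (adjusted p = 0.0814) without neonatal replicate 4. DESeq2 gave adjusted p = 0.0372 and limma voom with library quality weights 0.0457 on 6 libraries, and the range over 19 alternatives was 0.0372 to 0.947.

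Junb, the JUN protein that restrains myeloid progenitors, was the most even member in adult LICs. Junb (chromosome 8, 84976909 to 84978748, a single exon) measured 61.4, 67.6 and 51.2 CPM (adult replicates 1, 2 and 4) against 68.1, 77.0 and 113 CPM (neonatal replicates 4, 7 and 8). The highest adult and lowest neonatal libraries almost met. Its log2 fold change was 0.52 ± 0.31 (SE, edgeR adjusted p = 0.577), and 0.67 ± 0.23 without neonatal replicate 4 (adjusted p = 0.119).

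Jun encodes c-Jun, the strongest activator of the family. Jun (chromosome 4, 95049036 to 95052222, a single exon) measured 6.84, 12.6 and 4.75 CPM in adult LICs against 69.6, 31.1 and 6.40 CPM in neonatal replicates 4, 7 and 8. Neonatal replicates 4 and 7 lay above all adult libraries, and neonatal replicate 8 lay among them. The spread within the neonatal group was 10.9-fold. The log2 fold change with 6 libraries, 2.13 ± 0.81 (SE; adjusted p = 0.361 by edgeR), was 1.22 ± 0.71 (adjusted p = 0.292) without neonatal replicate 4.

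Fos, the partner of JUN proteins that appears first after a stimulus, did not separate the groups. Fos (chromosome 12, 85473901 to 85477270) measured 19.4, 21.8 and 3.41 CPM (adult replicates 1, 2 and 4) against 25.4, 15.6 and 4.33 CPM (neonatal replicates 4, 7 and 8). Each group thus held a low library, adult replicate 4 and neonatal replicate 8, with a 6.39-fold range in adult and a 5.87-fold range in neonatal LICs. The group means were 14.9 ± 9.99 and 15.1 ± 10.5 CPM (SD, n = 3 each). The log2 fold change was -8.33e-05 ± 0.77 (SE, edgeR adjusted p = 1.0) and -0.57 ± 0.87 without neonatal replicate 4 (adjusted p = 0.704), and its sign changed with the settings. Fosb, a close relative, had 56 counts in all 6 libraries together. It was at 1.49 CPM (5 counts) in neonatal replicate 4 and at 0.0468 to 0.241 CPM in the others. Its log2 fold change of 2.04 ± 1.20 was 0.77 ± 1.16 without neonatal replicate 4 (edgeR adjusted p = 0.567 and 0.70).

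Egr1 (on chromosome 18), the EGR factor best known in stem cells, varied most of all members in adult LICs. It measured 13.7, 3.90 and 0 CPM (adult replicates 1, 2 and 4) against 1.79, 4.01 and 4.70 CPM (neonatal replicates 4, 7 and 8). Neonatal replicates 7 and 8 lay close to adult replicate 2. Adult replicate 4 had 0 counts against 818 and 262 in the other adult libraries, at least 293-fold and 83.4-fold lower with a floor of 3 counts in that library. In all, 3 genes had no count in adult replicate 4 and at least 100 counts in each of the other 4 deep libraries, out of 10087 with that minimum. They were Egr1, Dusp5, which encodes a nuclear phosphatase of ERK kinases, and St3gal5, which encodes a sialyltransferase. The last 2 names were chosen after their values were seen. The same count was 2 for adult replicate 1, 0 for adult replicate 2, 0 for neonatal replicate 7 and 5 for neonatal replicate 8. The log2 fold change of Egr1 was -0.71 ± 1.53 (SE, edgeR adjusted p = 0.913), and it was 0.90 without adult replicate 1 (adjusted p = 0.959) and -1.28 without adult replicate 4 (adjusted p = 0.609). Egr2 went against the other members in the adult group. It had 0, 7 and 63 counts in adult replicates 1, 2 and 4, and 0, 0 and 33 in neonatal replicates 4, 7 and 8. Its highest level, 0.982 CPM, was in the library in which Egr1 was not detected.

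Nr4a1 encodes NUR77, an NR4A receptor that follows antigen and growth signals in many blood cells. Nr4a1 (chromosome 15, 101266846 to 101274794) measured 29.6, 14.5 and 2.42 CPM (adult replicates 1, 2 and 4) against 2.99, 8.63 and 21.8 CPM (neonatal replicates 4, 7 and 8). Both groups ran from low to high, with a 12.3-fold range in adult and a 7.29-fold range in neonatal LICs. Its log2 fold change was -0.45 ± 0.93 (SE, edgeR adjusted p = 0.909) and -0.01 ± 0.95 without neonatal replicate 4 (adjusted p = 0.994).

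Nr4a2, which encodes NURR1, was lower in level than Nr4a1 per length in 5 of 6 libraries but separated the groups. Nr4a2 (chromosome 2, 57107226 to 57124003) measured 2.76, 1.68 and 1.46 CPM (adult replicates 1, 2 and 4) against 6.28, 5.88 and 7.70 CPM (neonatal replicates 4, 7 and 8). The lowest neonatal library was above the highest adult one, and the neonatal libraries lay within 1.31-fold of each other. The value of neonatal replicate 4 rests on 21 counts. The log2 fold change was 1.75 ± 0.52 (SE, edgeR adjusted p = 0.230) with 6 libraries and 1.80 ± 0.51 (adjusted p = 0.0813) without neonatal replicate 4. DESeq2 gave adjusted p = 0.00549 and limma voom with library quality weights 0.0341, and the range over 19 alternatives was 0.00549 to 0.981. The log2 fold change kept to 1.58 to 2.10 in all of them.

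Nr4a3, which encodes NOR1, had 0 counts in every library. A floor of 3 counts over all 6 libraries is 0.00902 CPM. The counted gene model was 1884 bases long (chromosome 4, 48051248 to 48083352), equal to a coding sequence of this gene in GENCODE with its stop codon. The GENCODE gene runs from 48045153 to 48086447, and its ends lay outside the counted model. No member shared exon bases with another gene of the counted annotation.

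**Figure D2:**
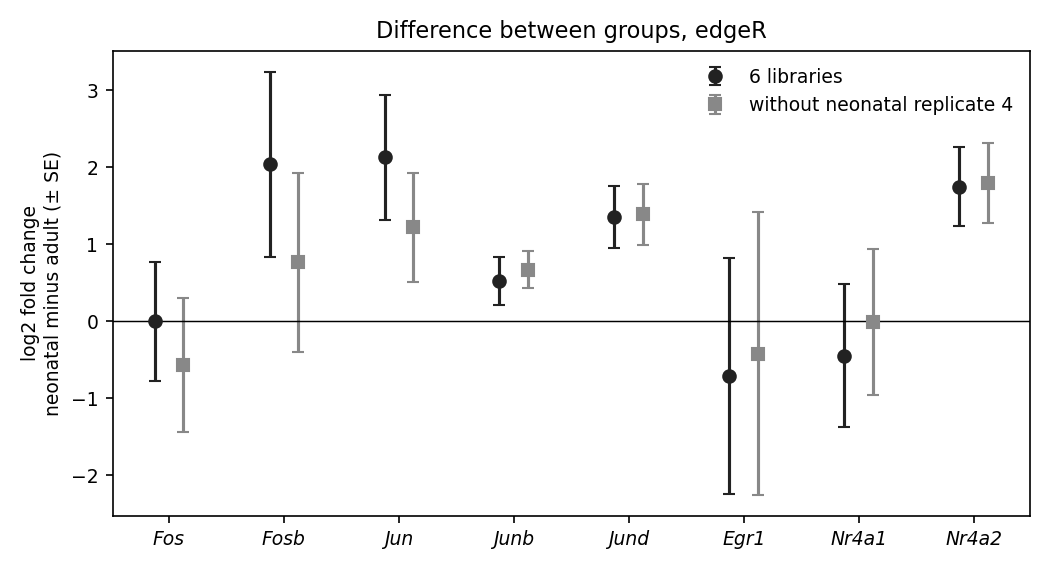
Log2 fold change, neonatal minus adult, with its SE, from edgeR for the 8 early genes tested on 6 libraries (circles) and without neonatal replicate 4 (squares). Jund at 1.35 and Nr4a2 at 1.75 hardly move when that library is left out, whereas Jun goes from 2.13 to 1.22.

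Promoters of members are shown as a description, and no link between their elements and the levels was tested. RefSeq promoter sequences (GRCm38.p6) were at hand for 9 members, 8 of them within 50 bases of the start counted here, and Egr1 had no entry. The stretches printed run from 150 to 12 bases before the RefSeq start, 5′ to 3′ on the gene's strand. Capitals mark the short form of the cyclic AMP response element (TGACG, or CGTCA on the other strand), the JUN promoter variant TGACATCA and the TATA box TATAAA.
Fos (chr12:85473740-85473878, + strand): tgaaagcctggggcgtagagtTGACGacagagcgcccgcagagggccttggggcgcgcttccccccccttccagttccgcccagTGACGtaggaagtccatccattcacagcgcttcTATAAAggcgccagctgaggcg
Jun (chr4:95052234-95052372, - strand): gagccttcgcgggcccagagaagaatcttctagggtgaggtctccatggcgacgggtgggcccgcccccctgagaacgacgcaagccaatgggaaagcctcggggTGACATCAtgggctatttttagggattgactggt
Junb (chr8:84978760-84978898, - strand): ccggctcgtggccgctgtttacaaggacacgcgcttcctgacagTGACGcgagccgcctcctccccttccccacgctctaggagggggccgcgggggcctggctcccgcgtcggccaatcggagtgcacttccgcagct
Nr4a1 (chr15:101266696-101266834, + strand): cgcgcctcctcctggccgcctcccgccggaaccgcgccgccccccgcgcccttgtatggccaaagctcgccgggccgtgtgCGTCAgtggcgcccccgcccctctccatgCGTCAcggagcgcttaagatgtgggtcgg
Nr4a2 (chr2:57124015-57124153, - strand): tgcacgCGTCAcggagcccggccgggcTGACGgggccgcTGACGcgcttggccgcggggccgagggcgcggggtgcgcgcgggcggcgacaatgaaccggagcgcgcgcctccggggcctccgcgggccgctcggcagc

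The short form was found in the windows (250 bases before to 50 after the start) of 6 of 8 members and in 20.8% of 32851 promoters of the table, on either strand. Fos held it 129 and 66 bases before the start, Junb 106, Fosb 60, Egr2 111 and 55, Nr4a1 233, 213, 69 and 40, and Nr4a2 200, 144, 123 and 111. Nr4a1 and Nr4a2 held 4 each, and the part of this element in their levels was not tested. Jun held TGACATCA 45 bases before the start, a word found on either strand in 3.62% of promoters. The EGR word GCGNGGGCG was found in Fosb, Nr4a1 and Nr4a2 (5.55% of promoters), and a CArG box, the SRF element, in Egr2 alone of the 8 windows (1.63%). Elements further than 250 bases before the start were not searched, and Egr1 had no window. TATAAA was found on either strand in Fos, Junb and Nr4a2 (13.6%). It lay 33 bases before the start in Fos, at the start itself in Junb and 164 bases before it in Nr4a2. The full element TGACGTCA, which contains the short form on both strands, the AP-1 word TGACTCA and the NR4A word AAAGGTCA were found in 0 of 8 windows (1.79%, 5.20% and 1.51% of promoters). Jund held none of the words searched; its RefSeq start minus the start of the GENCODE gene was -1210 bases. A match is a description of letters and not of a bound site.

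Levels of different genes were compared per length, as RPKM (CPM per kilobase of exon). Per counted length (1840 bases for Junb, 2878 for Jund), Junb was the most abundant member in all 6 libraries and Jund the next. Their ranges over the libraries were apart in adult and overlapping in neonatal LICs. In CPM, Junb lay above Jund in each adult library. Jund instead lay above Junb in neonatal replicates 4, 7 and 8 (95.6, 86.7 and 115 against 68.1, 77.0 and 113 CPM). The counted Jund model began at base 70697739, ahead of the GENCODE start at 70698949. The order was not tested with another length. Junb averaged 32.6 ± 4.52 RPKM in adult and 46.7 ± 12.8 RPKM in neonatal LICs, and Jund 13.5 ± 5.82 and 34.5 ± 5.08 RPKM (SD, n = 3 each). In adult LICs the order went on with Fos (7.10 RPKM), Nr4a1 (6.26), Jun (2.53), Egr1 (1.91) and Nr4a2 (0.589), and all neighbours from Jund to Nr4a2 overlapped. In neonatal LICs it went on with Jun (11.2 RPKM), Fos (7.22), Nr4a1 (4.50), Nr4a2 (1.98) and Egr1 (1.14). There Jund lay above Jun in every library and Nr4a2 above Egr1, while Jun, Fos, Nr4a1 and Nr4a2 overlapped as neighbours. Egr2 and Fosb stayed below 0.4 RPKM in all libraries.

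Because AP-1 is made of pairs, the mix of its parts was described in each library. The 3 JUN genes summed to 53.7, 56.1 and 36.3 RPKM in adult replicates 1, 2 and 4 and to 92.1, 81.7 and 103 RPKM in neonatal replicates 4, 7 and 8. Jund made up 33.8%, 27.5% and 19.3% of that sum in adult and 36.1%, 36.9% and 38.8% in neonatal libraries. Junb made up 62.2%, 65.5% and 76.6% in adult and 40.2%, 51.2% and 59.3% in neonatal libraries. Per length, neither share overlapped between the groups. Without division by length, the Jund share did overlap, being higher in adult replicate 1 than in neonatal replicate 4. The shares of a sum move against each other and were not tested. Jun held 4.0% to 7.06% in adult LICs, but 23.7%, 11.9% and 1.94% in neonatal replicates 4, 7 and 8. Fos stood at 17.3, 18.5 and 4.49 RPKM per 100 RPKM of the JUN family in adult replicates 1, 2 and 4, and at 13.2, 9.13 and 2.0 in neonatal replicates 4, 7 and 8. Fosb added at most 3.16% to the sum of Fos and Fosb. Within the NR4A family, Nr4a2 made up 6.46%, 7.90% and 31.0% in adult and 60.8%, 33.5% and 20.7% in neonatal libraries, so that share did overlap.

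**Figure D3:**
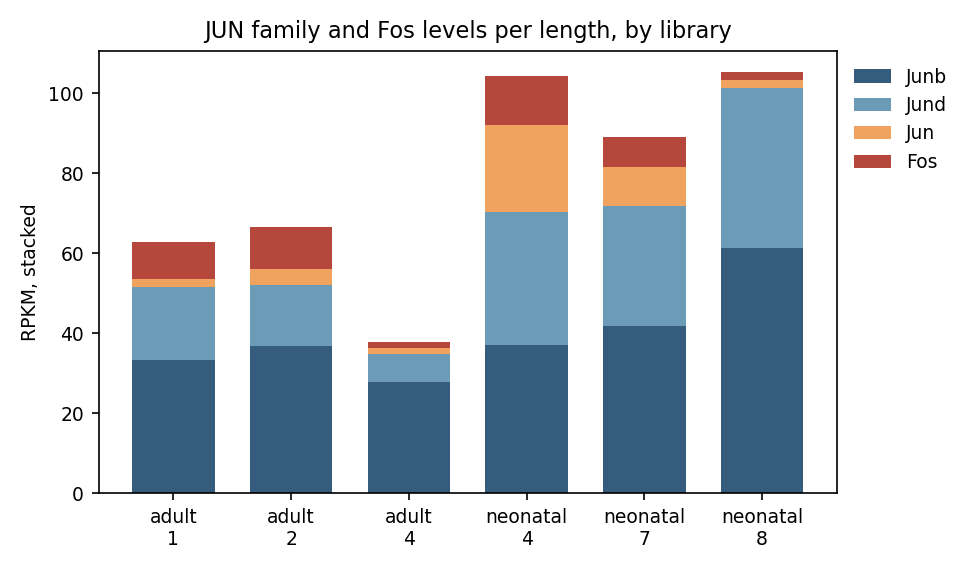
Stacked levels per length (RPKM, TMM scaling) of Junb, Jund, Jun and Fos in each library. The JUN genes sum to at most 56.1 RPKM in adult and at least 81.7 RPKM in neonatal libraries, and Jun and Fos are small in adult replicate 4 and neonatal replicate 8.

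The spread within the adult group had a common side. All 8 members tested were lowest in adult replicate 4, whereas 34.2% of all 13272 genes tested were. Adult replicates 1 and 2 held the highest adult value for 4 members each. The range of log2 CPM among adult libraries was 8.57 for Egr1, 3.60 for Nr4a1, 2.66 for Fos, 1.40 for Jun and 1.38 for Jund, against a median of 0.67 over all genes tested. Junb, at 0.40, was the member under that median. Of the 29 tested genes in a list of 34 other early response genes, 26 were also lowest in adult replicate 4. Among them were Dusp1, a MAP kinase phosphatase (49.6, 24.2 and 7.40 CPM in adult replicates 1, 2 and 4), Dusp6, a phosphatase of ERK (45.5, 56.3 and 5.07 CPM), and Klf2, an early zinc finger factor (42.9, 24.5 and 5.07 CPM). These 3 were chosen after their values were seen. Gadd45b, a stress response gene chosen likewise, was instead highest in adult replicate 4 (14.7, 28.2 and 54.5 CPM in adult replicates 1, 2 and 4). In the same 3 libraries, maturing neutrophil markers summed to 5559, 14279 and 1726 CPM, macrophage markers to 508, 657 and 135 CPM, and the 8 myeloid progenitor markers to 16704, 14511 and 25978 CPM. Most of the latter difference lay in Mpo (1874, 1097 and 10368 CPM), while Elane measured 9479, 8257 and 9070 CPM. Their part in the low early gene values of adult replicate 4 was not tested. That library held 62308393 counts. Without it, the log2 fold change was 1.04 for Jund (edgeR adjusted p = 0.354) and 1.58 for Nr4a2 (adjusted p = 0.4).

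Among neonatal libraries, 5 of the 8 members were highest in neonatal replicate 8 and 3 in neonatal replicate 4, against 34.0% and 38.9% of all genes tested. Of the 8, 3 were lowest in neonatal replicate 4 (Junb, Egr1 and Nr4a1), 2 in neonatal replicate 7 and 3 in neonatal replicate 8 (Fos, Fosb and Jun), against 49.6%, 24.5% and 25.9% of all genes tested. Between the 2 deep neonatal libraries, Fos and Jun were lower in replicate 8 by 1.84 and 2.27 in log2 CPM, and Nr4a1 was higher there by 1.33, with a median absolute difference of 0.33 over all genes tested. Fos and Jun thus went against Nr4a1 in this pair of libraries. Of the 29 other early response genes, 24 were highest in neonatal replicate 8, against 34.0% of all genes tested, and 21 were lowest in neonatal replicate 4.

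**Figure D4:**
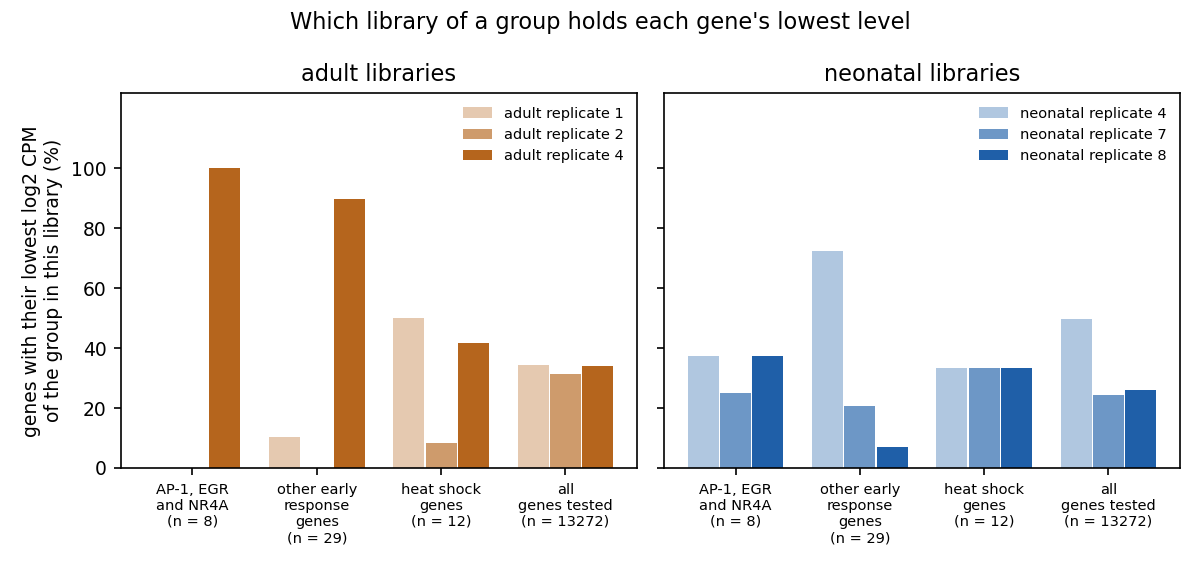
Percent of genes whose lowest log2 CPM of the group fell in each library, for the 8 AP-1, EGR and NR4A genes tested, 29 other early response genes, 12 heat shock genes and all 13272 genes tested. Adult replicate 4 holds the lowest adult value of 8 of 8 and 26 of 29 early genes, against 34.2% of all genes.

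Of 12 listed other AP-1 partners, 10 were tested. On 6 libraries edgeR called none, with 0 at an unadjusted p under 0.05 (4 positive and 6 negative, median log2 fold change -0.16, against 0.05 over all genes tested); DESeq2 and limma voom also called none. Fosl2 and Atf2 had every neonatal library below every adult one, against 12% of all genes tested; Atf2 was named after its values were seen. Jdp2, a repressor that pairs with JUN, was at 40.2 to 87.3 CPM in adult and 27.2 to 57.3 CPM in neonatal LICs (log2 fold change -0.75, edgeR adjusted p = 0.545). Fosl2, a late FOS relative, was at 5.59 to 6.99 and 3.54 to 5.07 CPM (-0.45, adjusted p = 0.768). Mafk, a small MAF protein, ran from 31.9 to 37.0 CPM in adult LICs against 23.3, 60.3 and 87.5 CPM in neonatal replicates 4, 7 and 8. Mafk was called higher in neonatal LICs without neonatal replicate 4 (log2 fold change 1.09, edgeR adjusted p = 0.0474). In that fit 3.72% of all genes tested were called higher. NAB1 and NAB2 are corepressors that bind EGR proteins. Nab1 was at 68.4 to 145 CPM in adult and 59.8 to 93.8 CPM in neonatal LICs, and Nab2 at 1.25 to 3.57 and 0.299 to 10.5 CPM, neither called (edgeR adjusted p = 0.678 and 0.728); Egr3 had no count. RXR proteins are dimer partners of NR4A1 and NR4A2. Rxrb ran from 83.0 to 112 CPM in adult LICs against 38.0, 205 and 282 CPM in neonatal replicates 4, 7 and 8, and was called without neonatal replicate 4 (log2 fold change 1.28, edgeR adjusted p = 0.0402). Rxra was at 7.15 to 16.9 and 0.299 to 19.2 CPM (edgeR adjusted p = 0.955). The lowest values of Nab2 and Rxra, 0.299 CPM in neonatal replicate 4, each rest on 1 count.

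All 23 listed kinases and factors that act upstream of the early factors were tested. On 6 libraries edgeR called none and had 0 at an unadjusted p under 0.05 (11 positive, 12 negative, median log2 fold change -0.01). DESeq2 and limma voom also called none. Limma voom with library quality weights called Mef2d alone higher in neonatal LICs, against 4% of all genes tested. Mef2d, a MADS box factor that acts on the Nr4a1 promoter, ran from 26.1 to 31.9 CPM in adult LICs against 21.2, 65.2 and 94.0 CPM in neonatal replicates 4, 7 and 8. It was called without neonatal replicate 4 (log2 fold change 1.49, edgeR adjusted p = 0.0360), against 3.72% of all genes called higher in that fit. Creb1, which drives Fos and Nr4a genes after cyclic AMP signals, was at 87.9 to 121 CPM in adult and 63.6 to 72.6 CPM in neonatal LICs (log2 fold change -0.54, edgeR adjusted p = 0.503). Mef2a was at 24.2 to 43.5 and 13.2 to 21.7 CPM (-0.70, adjusted p = 0.544). Of 4 genes for breakdown of JUN proteins, edgeR, DESeq2 and limma voom called none on 6 libraries. None had an unadjusted edgeR p under 0.05 there. Without neonatal replicate 4, edgeR also called none. In that fit Rfwd2 alone had an unadjusted edgeR p under 0.05 (0.0286), against 29.5% of all genes tested. Det1 was at 9.35 to 18.8 CPM in adult and 19.1 to 24.5 CPM in neonatal LICs, Rfwd2, which encodes the ubiquitin ligase COP1, at 113 to 144 and 86.1 to 108 CPM, and Itch, another ubiquitin ligase, at 90.9 to 223 and 53.5 to 176 CPM.

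Other early response genes went both ways. Of 29 tested, 15 had a positive and 14 a negative log2 fold change (median 0.01). On 6 libraries edgeR called none, with 3 of 29 at an unadjusted p under 0.05, against 11.9% of all genes tested. DESeq2 called Dusp2 alone, higher in neonatal LICs, against 2.43% of all genes tested called higher. Plain limma voom called none. With library quality weights it called Dusp2 alone, also higher, against 4% of all genes tested. Without neonatal replicate 4, edgeR called 2, both higher in neonatal LICs, against 3.72% of all genes called in that direction. Dusp2, an early nuclear MAP kinase phosphatase, was at 20.5 to 23.4 CPM in adult and at 50.5, 63.0 and 137 CPM in neonatal LICs (log2 fold change 1.95, edgeR adjusted p = 0.149, and 2.21, adjusted p = 0.0360, without neonatal replicate 4). Zfp36l2, which promotes decay of AU-rich mRNAs, ran from 166 to 179 CPM in adult LICs against 176, 316 and 616 CPM in neonatal replicates 4, 7 and 8 (1.44, adjusted p = 0.0450, without neonatal replicate 4). Klf6, an early zinc finger factor, was at 97.9, 67.7 and 38.5 CPM in adult and at 14.9, 28.8 and 35.1 CPM in neonatal LICs (-1.36, adjusted p = 0.305), all neonatal libraries below all adult ones. This held for 1 of 29 genes of the list, against 12% of all genes tested. The reverse held for 2 of 29, against 7.67%.

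Heat shock genes encode chaperones that refold proteins. Of 12 tested, 5 were lowest in adult replicate 4 among adult libraries (41.7%, against 34.2% of all genes tested) and 6 were highest there. Their sum was 3600, 3771 and 4627 CPM in adult replicates 1, 2 and 4 and 6423, 3818 and 3944 CPM in neonatal replicates 4, 7 and 8. Hspa1b, an inducible HSP70 gene, was at most 3.79 CPM in any library, and Hspd1, a mitochondrial chaperonin gene, ran from 230 to 453 CPM in adult and 326 to 484 CPM in neonatal LICs. Between groups edgeR called none on 6 libraries, with 1 of 12 at an unadjusted p under 0.05 (Hsp90ab1), against 11.9% of all genes tested. DESeq2 and limma voom called none, while limma voom with library quality weights called Hsp90ab1 higher in neonatal LICs, against 4% of all genes tested. Without neonatal replicate 4, Hsp90ab1 was higher in neonatal LICs (log2 fold change 0.92, edgeR adjusted p = 0.0453) and Hsp90aa1 lower (-0.96, adjusted p = 0.0420), both being genes of HSP90 chaperones. Over all genes tested, that fit called 3.72% higher and 2.25% lower.

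Genes with the most similar profiles were sought for Fos, Egr1 and Nr4a1, as the root mean square distance over 6 libraries between log2 CPM values centred on each gene's mean. For Nr4a1 they were Nfkbiz (0.32), Slc9a3r2 (0.45) and Sytl1 (0.45), against a median distance of 1.46 over 11847 genes. Nfkbiz, an early gene of NF-kappa B signalling and also a member of the early response list, measured 11.4, 6.71 and 0.732 CPM (adult replicates 1, 2 and 4) against 1.49, 4.11 and 6.03 CPM (neonatal replicates 4, 7 and 8). For Egr1 they were S100a6 (0.53), S100a4 (0.85) and Hes5 (1.11; median 2.81), and S100a6 was at 0.281 CPM in adult replicate 4 and 10.2 to 40.3 CPM in the other libraries. For Fos they were Ifitm6 (0.40), Guca1b (0.44) and Efna5 (0.45; median 1.33), the latter 2 at most 1.22 CPM. Without neonatal replicate 4, 1 of the 3 nearest genes was shared for Nr4a1, 2 for Egr1 and 0 for Fos. The members themselves were not each other's nearest: Jun ranked 1132 and Nr4a1 8738 of 11847 by distance from Fos, while Nr4a1 ranked 101 from Egr1.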

How the data were processed

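PolyA-selected RNA of 6 libraries was read single-end at 75 bases from an unstranded kit, per the labels' protocols. Gene counts were deposited as raw reads counted by featureCounts 1.5.1, primary alignments without a strand option, on a UCSC mm10 annotation, per the file headers; the exon lengths came from the same file. Trimmomatic, Bowtie, TopHat and DESeq2 are also named, without versions, per the submitters' processing notes. Testing used edgeR 4.0.16 under R 4.3.3 after filterByExpr at a minimum count of 10 (13272 genes kept), TMM, a robust quasi-likelihood F test, neonatal minus adult, Benjamini-Hochberg over all genes tested, threshold 0.05. The SE is the absolute log2 fold change divided by the square root of F. Log2 CPM used a prior count of 2. limma 3.58.1 and DESeq2 1.42.0 were alternatives, and the fit was tested on simulated counts. The members, gene lists and rules were chosen with earlier results of these data known. Named were all 10 members; per list up to 3 genes of smallest edgeR p with a mean of at least 1 CPM, and those called with or without neonatal replicate 4; and 3 nearest profiles each for 3 members.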

Additional observations from a re-analysis of the deposited data

How the results depend on the processing

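On 6 libraries edgeR called 7 genes, DESeq2 759, limma voom with library quality weights 1043 and edgeR's likelihood ratio test 592; the count was 11 with all libraries thinned to the shallowest, 0 with chromosomes X and Y left out, and 1 to 828 when a library was left out, 828 being without neonatal replicate 4. Of the 10 members, 0 were called by edgeR in every alternative run with it, and 2 (Jund and Nr4a2) by DESeq2, by limma voom with library quality weights, and by DESeq2 without neonatal replicate 4 (adjusted p = 0.00986 and 0.00698), a fit chosen after seeing the data. Limma voom without neonatal replicate 4, chosen likewise, called 0 (adjusted p = 0.0601 and 0.0569). Jun, Junb, Jund, Nr4a2 and, where tested, Fosb kept a positive log2 fold change in every alternative. The sign of Fos turned positive with DESeq2 (0.062), the likelihood ratio test (0.012), RLE (0.048), upper quartile (0.035) and TMMwsp (0.030) scaling, a minimum count of 50 (0.0092), thinning (0.79), and without adult replicate 1 (0.28), adult replicate 2 (0.38) or neonatal replicate 8 (0.45), and leaving out a library moved it over -0.57 to 0.45. With limma voom, voom with quality weights and without adult replicate 1, the log2 fold change turned to 2.45, 1.88 and 0.90 for Egr1 and to 0.21, 0.18 and 0.44 for Nr4a1; leaving out a library moved them over -1.28 to 0.90 and -1.36 to 0.44, and the cause was not tested. Without division by length, Jund held 35.1% of the JUN family in adult and 44.9% in neonatal LICs, against 26.9% and 37.2% per length. These are group means, and without division by length the groups overlapped in this share. No paired analysis was possible because the groups share a single replicate number, 4. The 3932833 counts of neonatal replicate 4 limit Egr1 and Nr4a1 there to 6 and 10 counts.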
